A study of Mus musculus with 6 samples.

Results

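The genes described are 46 interferon-stimulated antiviral effectors: proteins that bind, cut, edit or mark viral RNA, keep viruses from entering or leaving a cell, or conjugate ISG15 and ubiquitin to other proteins. They were listed by name as effectors of the interferon response, and the GBP GTPases, the TRIM30 group, the sensors, the IRFs and the STATs were kept out of the list. Of the 46, 42 were measured by a probe set that names exactly 1 gene, out of 19937 genes measured that way. Isg15, Oas1g and Ifi47 lay only on probe sets that name several genes, and no probe set was matched to Ifi44, so these 4 have no values here.

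The measurements came from 6 Mouse Gene ST arrays of lineage-negative (Lin-) hematopoietic cells from C57BL6 mice that carry the Rosa26rtTA allele, which provides the doxycycline-dependent activator. Cells were kept in serum-free medium with murine stem cell factor (50 ng/ml), murine interleukin 3 (20 ng/ml), human Flt3 ligand (50 ng/ml) and human interleukin 11 (50 ng/ml), and were transduced 24 h after isolation with a doxycycline-inducible lentiviral vector. In 3 samples the vector carried Evi1 followed by an internal ribosome entry site and EGFP, and in 3 control samples it carried EGFP alone. Both groups received doxycycline (1 µg/ml) about a day later and were sorted for EGFP-expressing cells, and RNA was taken 20 h later by the series design or 24 h by the sample protocols. Both groups thus met lentiviral particles, doxycycline, rtTA and EGFP, and every difference below is between 2 transduced, induced and sorted populations. The vectors differed in their inserts, and whether the amount of vector or of EGFP was alike in the groups was not tested. EVI1, encoded at the Mecom locus, is a zinc finger transcription factor of hematopoietic stem cells that is overexpressed in some myeloid leukemias. The labels do not say whether the 3 replicates came from separate mice, cultures or transductions, so the p-values measure the spread between these arrays only.

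Type I and type III interferons bind their receptors and activate the kinases Jak1 and Tyk2. Transcription factors downstream of these kinases, IRF9 among them, enter the nucleus and bind interferon-stimulated response elements, whose core is a repeat of the letters GAAA, in the promoters of interferon-stimulated genes. Some IRFs bind the same elements, and hematopoietic stem and progenitor cells are known to express a number of these genes without an added interferon.

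Levels are RMA values on the log2 scale, and a difference is the mean of the arrays labelled EVI1 minus the mean of the EGFP arrays, tested with limma and Benjamini-Hochberg adjustment across the 19937 genes. The words rose and fell are kept for genes with an adjusted p below 0.05. Array medians lay between 7.24 and 7.31. The Mecom transcript itself did not mark the labels: the brighter of its probe sets read 6.39, 7.53 and 6.86 in EGFP replicates 1 to 3 and 6.29, 6.18 and 6.49 in EVI1 replicates 1 to 3, a difference of -0.60 (limma adjusted p = 0.166). An exact permutation test, two-sided, gave p = 0.2, and with 3 arrays against 3 it can give none under 0.1. Its other probe set differed by -0.23 (exact permutation p = 0.1), and without EGFP replicate 1 the brighter one passed the limma test in the downward direction (difference -0.87, adjusted p = 0.0306). Whether either probe set can see the vector's transcript is not known here, so this gene does not check the labels, and each direction below is that of the arrays as labelled. Xist and the Y-linked gene Eif2s3y split the arrays by replicate number and not by group: Xist read 6.16 and 6.14 in replicate 1 of the EGFP and EVI1 groups and 12.09 to 12.32 in the other 4 arrays, and Eif2s3y read 9.84 and 10.38 in replicate 1 and 4.05 to 4.72 in the other 4. In bulk RNA of this kind, fewer cells of a type and less RNA per cell cannot be told apart.

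The promoters of 5 members are shown first, because they hold, or lack, the letters through which this class of genes is known to answer interferon. The search was for GAAA followed, after any 2 bases, by a second GAAA, on either strand (TTTC, any 2 bases and TTTC where it lies on the other strand), in RefSeq windows that run from 250 bases before to 50 bases after each annotated start (GRCm38.p6). The 3 members with the largest rise that held a match were Rsad2 (chr12:26456453-26456702, minus strand), Ifit1 (chr19:34640639-34640888, plus strand) and Ddx60 (chr8:61927837-61928086, plus strand). The 2 measured members with a promoter entry whose difference lay nearest to 0 were Ifitm1 (chr7:140967826-140968075, plus strand) and Oas1c (chr5:120812515-120812764, minus strand). The 250 bases before the start are printed 5′ to 3′ on the gene's strand, with every match in capitals.
Rsad2: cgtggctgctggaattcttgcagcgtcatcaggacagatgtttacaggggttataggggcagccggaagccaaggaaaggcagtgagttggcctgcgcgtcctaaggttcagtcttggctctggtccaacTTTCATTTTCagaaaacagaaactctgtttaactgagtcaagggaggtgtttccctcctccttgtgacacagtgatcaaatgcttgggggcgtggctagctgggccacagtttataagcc
Ifit1: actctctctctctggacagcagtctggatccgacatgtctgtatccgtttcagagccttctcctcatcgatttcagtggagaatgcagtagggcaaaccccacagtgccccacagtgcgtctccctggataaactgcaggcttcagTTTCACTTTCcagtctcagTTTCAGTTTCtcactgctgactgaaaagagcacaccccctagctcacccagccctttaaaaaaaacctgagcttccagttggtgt
Ddx60: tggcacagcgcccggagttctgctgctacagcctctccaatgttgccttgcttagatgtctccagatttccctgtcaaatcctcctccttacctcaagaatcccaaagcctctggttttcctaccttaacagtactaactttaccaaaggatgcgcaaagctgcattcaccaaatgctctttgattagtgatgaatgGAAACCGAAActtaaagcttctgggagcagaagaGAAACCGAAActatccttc
Ifitm1: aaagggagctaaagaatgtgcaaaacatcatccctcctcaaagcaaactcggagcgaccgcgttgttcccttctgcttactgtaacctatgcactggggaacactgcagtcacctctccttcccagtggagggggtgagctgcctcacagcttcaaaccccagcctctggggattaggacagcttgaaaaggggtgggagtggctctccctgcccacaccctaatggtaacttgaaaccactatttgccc
Oas1c: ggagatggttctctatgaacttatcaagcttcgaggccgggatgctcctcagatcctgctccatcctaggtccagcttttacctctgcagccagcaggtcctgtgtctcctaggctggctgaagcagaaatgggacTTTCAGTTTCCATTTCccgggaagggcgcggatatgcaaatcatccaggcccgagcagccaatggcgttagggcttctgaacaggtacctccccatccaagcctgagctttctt
Rsad2 held 1 match and Ifit1 and Ddx60 held 2 separate ones each. Ifitm1 held none, and Oas1c, whose level did not pass the test, held 2 that overlap and so run together in capitals.

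Of the 42 measured members, 31 had an entry in the promoter table, and 11 of these 31 (35.5%) held the motif. It was found in 605 of 15562 tested genes with an entry (3.89%), in 97 of 1444 genes that rose (6.72%) and in 1079 of 27025 genes of the whole promoter table (3.99%). Within the list 7 of 22 members that rose (31.8%) held a match, and so did 4 of 9 that did not pass (44.4%). The holders among the risen members were Rsad2, Ifit1, Ddx60, Ifit3, Trim21, Oas1a and Bst2, and the other holders were Oas3, Ifitm2, Ifitm3 and Oas1c. Ifit2, Oasl2, Xaf1, Herc6 and Cmpk2 were among the members that rose without a match in this window. A match is a stretch of letters and not a measured binding site, and the window is short. Rtp4, Oas2, Parp14, Oas1b, Mx1, Ifi27l2a, Parp9, Mx2, Usp18, Tor3a and Ifi27 had no entry.

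**Figure D1:**
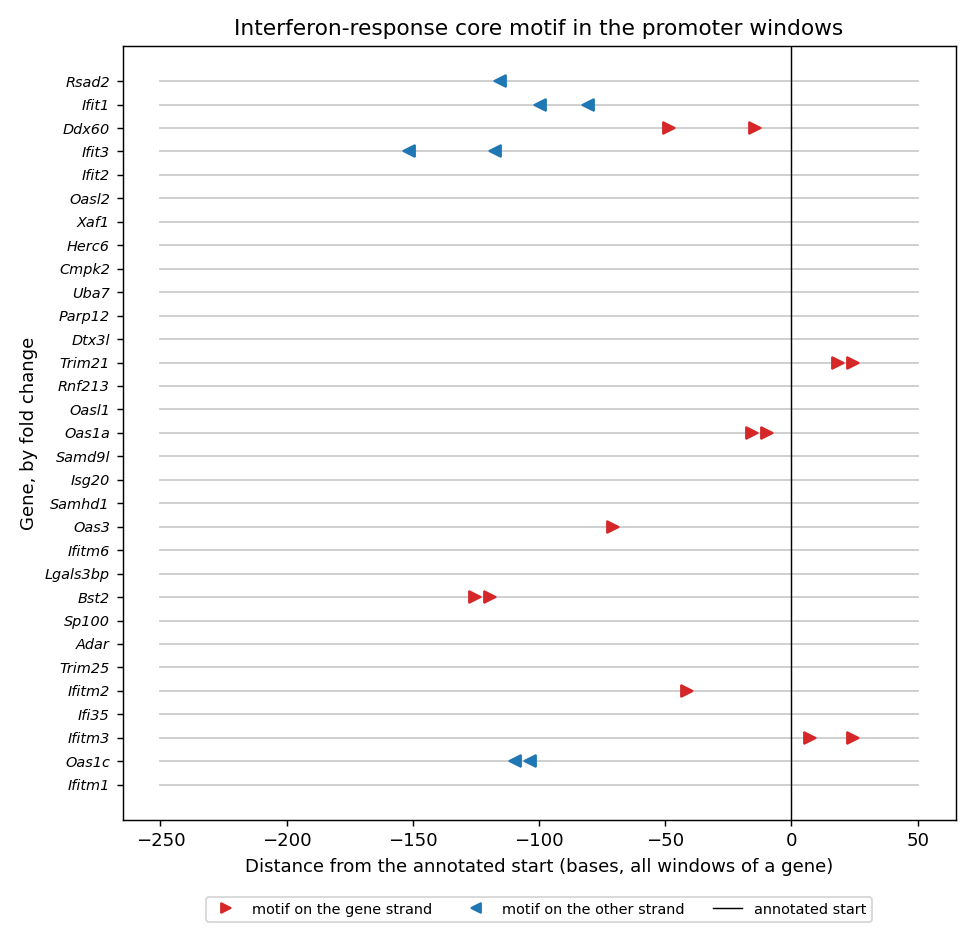
Position of the doubled GAAA motif in the RefSeq promoter windows of the 31 members with an entry, in bases from the annotated start (x axis), with the genes ordered by difference from the largest rise at the top; red triangles are matches on the gene's strand and blue ones matches on the other strand. Matches are found in 11 genes along the whole order, from Rsad2, Ifit1, Ddx60 and Ifit3 at the top through Trim21, Oas1a, Oas3 and Bst2 to Ifitm2, Ifitm3 and Oas1c near the bottom.

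Of the 42 measured members, 30 rose in the arrays labelled EVI1, 0 fell and 12 did not pass the test. Over all genes tested, 9.06% rose and 9.18% fell. The median difference of the 42 members was 1.38, and that of all genes was 0.0060. The difference was above 0 in 41 of 42 members, the exception being Ifi27. Rises of at least 2-fold were found in 25 members (2.87% of all genes), of at least 4-fold in 10 (0.657%) and of at least 8-fold in 5 (0.196%): Rsad2, Ifit1, Ddx60, Ifit3 and Ifit2. All 3 arrays labelled EVI1 lay above all 3 EGFP arrays in 33 members (16.1% of all genes), and the reverse was found in 0 members (16.5%). With the replicate number as a block 34 members rose (10.9% of all genes). The members were chosen with earlier results of these arrays known, so these counts describe the list and are not a test of it.

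Those counts depended on which array was left out. Between 19 members (without EVI1 replicate 3, 5.91% of all genes) and 34 (without EVI1 replicate 2, 6.37%) rose when 1 array was omitted. Without replicate 2 of both groups, a setting added after the data were seen, 36 rose (8.21% of all genes). Markers of progenitor cells moved with the groups: 7 of 8 measured stem and progenitor markers fell (9.18% of all genes). The array means of the list were 10.2 to 10.3 in the EGFP arrays and 9.13 to 9.18 in those labelled EVI1. Markers of plasmacytoid dendritic cells, the main interferon producers of blood and marrow, did not separate the groups as a list, with array means of 7.77 to 7.97 and 7.83 to 7.92, and Ccr9 was the 1 of 6 measured that rose. The part of these shifts in the members' rise was not tested.

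The order of induction ran from Rsad2, with a difference of 4.98, to Ifi27, with -0.26. Rsad2 stood clear of most other members: its 95% interval (4.67 to 5.30) lay wholly above those of 39 of the other 41 and overlapped those of Ifit1 and Ifit3 only. Cmpk2, Mx1 and Mx2 are among those 39. Their control means, like that of Ifit3, lay near background, so their differences may be understated and their places in the order are not firm. Every one of the 41 neighbouring pairs in the order had overlapping intervals. Overlap is not a test of the difference between members, and none was run, so the order of neighbours is a description. The intervals of 34 members lay above 0 and those of 18 lay above a 2-fold change. At the low end, the intervals of 8 members lay wholly under a 2-fold change. Ifitm1 had the shortest distance from 0, with a difference of 0.04 and an interval of -0.18 to 0.26.

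**Figure D2:**
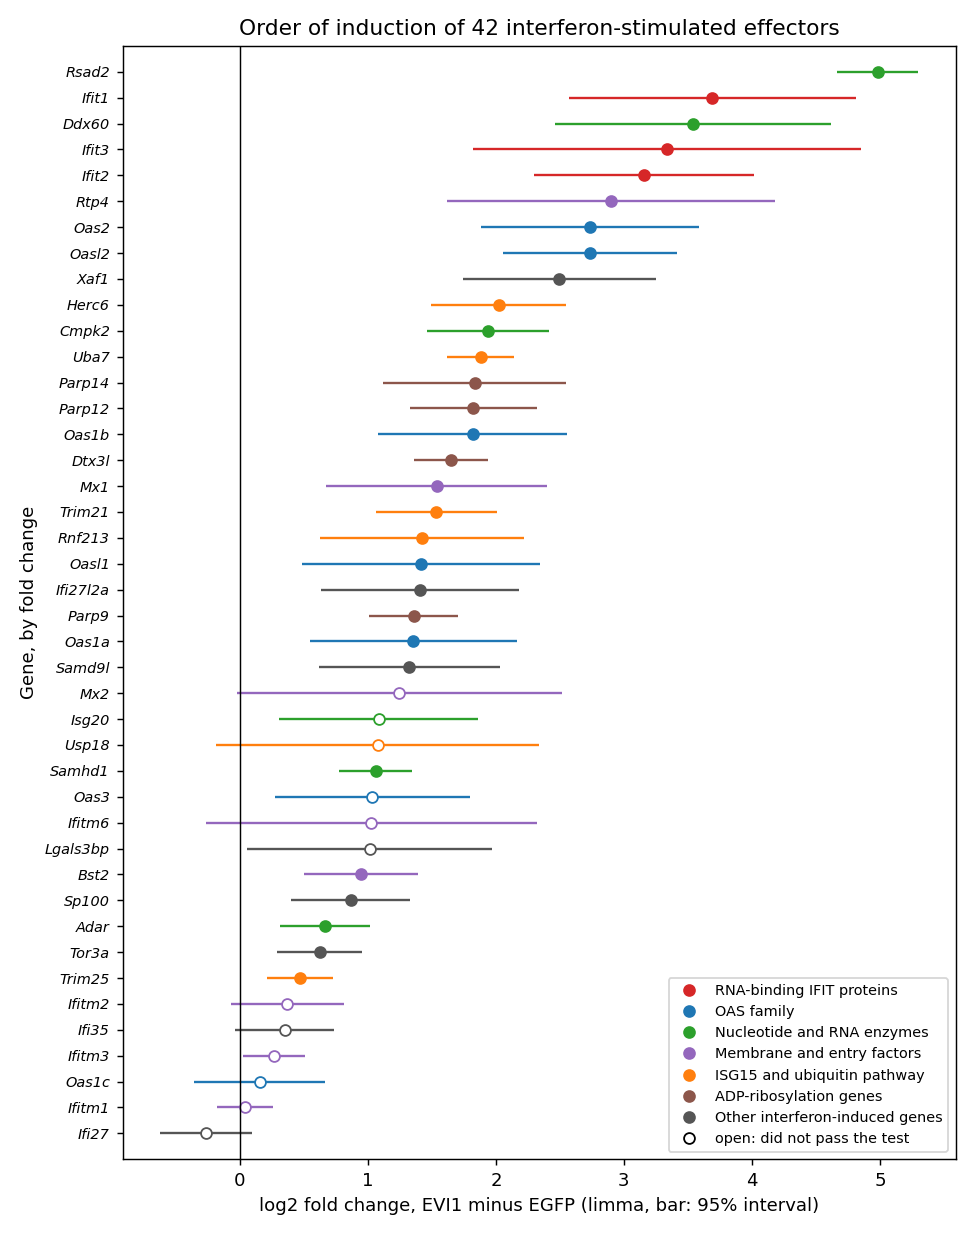
Difference in log2 level, EVI1 minus EGFP (x axis), of the 42 measured members in order of size, with bars for the 95% interval of the limma fit, colours for the roles of the genes and open circles for the 12 members that did not pass the test. Rsad2 at 4.98 lies apart from all but Ifit1 and Ifit3, the middle of the order is a slope of overlapping intervals, and Ifitm1 and Ifi27 lie at 0.04 and -0.26. The control means of Ifit3, Cmpk2, Mx1 and Mx2 lay near background, so their differences may be understated.

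The IFIT proteins bind viral RNA through tetratricopeptide repeats, and all 3 measured members rose, with a median difference of 3.34. Ifit1, which recognises the 5′ end of foreign RNA, read 7.60, 6.74 and 7.29 in EGFP replicates 1 to 3 and 11.40, 9.64 and 11.67 in EVI1 replicates 1 to 3. Every array labelled EVI1 was above every control, and replicate 2 was the low array in both groups. The difference was 3.69 ± 0.49 (SE, limma adjusted p = 0.00159), 12.9-fold. Ifit2, which forms complexes with the other IFITs, read 8.42, 8.30 and 8.07 in the controls and 11.85, 10.41 and 12.00 in the arrays labelled EVI1. Here only EVI1 replicate 2 was low, and the groups did not overlap. Its difference was 3.16 ± 0.37 (adjusted p = 0.000944). Ifit3, which stabilises Ifit1 on RNA, read 6.64, 6.84 and 6.04 in the controls and 10.77, 8.03 and 10.72 in the other group. Replicate 2 was the highest of the controls and by far the lowest of the arrays labelled EVI1, which gave this gene the largest SD of any member within a group, 1.57. Its difference was 3.34 ± 0.66 (adjusted p = 0.00981), and the call was lost without EVI1 replicate 3 (2.90, adjusted p = 0.0528). The control mean of Ifit3 lay under 6.95, the level under which 95% of 1027 olfactory receptor genes lay in the EGFP arrays, so its fold is taken from a level near background.

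Enzymes that act on nucleotides and RNA made up 6 measured members, of which 5 rose. Rsad2 (viperin), a radical SAM enzyme that makes a chain-terminating nucleotide, read 7.33, 6.98 and 7.14 in EGFP replicates 1 to 3 and 12.10, 11.97 and 12.32 in EVI1 replicates 1 to 3. All arrays of a group lay close together and the groups were far apart. The difference of 4.98 ± 0.14 (adjusted p = 4.23e-06) is a 31.6-fold rise, and it lay between 4.89 and 5.07 whichever array was left out. Cmpk2, a mitochondrial nucleotide kinase and the next protein-coding gene to Rsad2 on chromosome 12, read 6.85, 6.28 and 6.89 in the controls and 8.55, 8.33 and 8.95 in the arrays labelled EVI1, without overlap. Its difference was 1.94 ± 0.21 (adjusted p = 0.000642), with a control mean that also lay under the olfactory receptor level, so the rise may be understated. Ddx60, a helicase linked to RNA sensing, read 7.96, 6.64 and 7.32 in the controls and 11.38, 9.78 and 11.38 in the other group. Replicate 2 was low in both groups, and still every array labelled EVI1 exceeded every control. Ddx60 differed by 3.54 ± 0.47 (adjusted p = 0.00159).

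Samhd1, which breaks down the deoxynucleotides that viruses need for DNA synthesis, read 11.86, 11.53 and 11.72 in the controls against 12.81, 12.63 and 12.85. Its arrays were tight in both groups. Samhd1 rose by 1.06 ± 0.13 (adjusted p = 0.000926). Adar, which edits adenosine to inosine in double-stranded RNA, rose by 0.67 ± 0.15 (adjusted p = 0.0182), a call lost without EVI1 replicate 1 (adjusted p = 0.0681) or EVI1 replicate 3 (0.0755). Isg20, an exonuclease of single-stranded RNA, read 9.08, 9.24 and 9.14 in the controls and 10.68, 9.31 and 10.72 in the arrays labelled EVI1. In EVI1 replicate 2 it was barely above the controls, while the other 2 arrays of that group lay close together. Its difference of 1.08 ± 0.34 did not pass (adjusted p = 0.0633). It passed with the replicate number as a block (adjusted p = 0.0476) and, at 1.55, without EVI1 replicate 2 (adjusted p = 0.000720).

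The OAS family senses double-stranded RNA, and its catalytic members make the 2-5A molecules that switch on RNase L. Of 7 measured members 5 rose, with a family median of 1.42. Oas2 read 8.91, 7.84 and 9.02 in the controls and 11.57, 10.64 and 11.78 in the arrays labelled EVI1. Replicate 2 was the lowest in both groups and the groups did not overlap. The difference was 2.74 ± 0.37 (adjusted p = 0.00176). Oasl2, an OAS-like protein with ubiquitin-like domains, rose almost as much, by 2.73 ± 0.30 (adjusted p = 0.000654), from 9.37, 8.39 and 9.16 to 11.90, 11.18 and 12.05. Its next neighbour on chromosome 5, Oasl1, which holds back translation of Irf7, read 7.45, 7.66 and 7.89 in the controls and 9.48, 7.99 and 9.77 in the other group. Only EVI1 replicate 2 was low, barely above the highest control. The difference of 1.42 ± 0.41 had the highest adjusted p of the members that rose, 0.0450, and the call was lost when any array but EVI1 replicate 2 was left out (adjusted p from 0.0651 without EGFP replicate 2 to 0.163 without EVI1 replicate 3).

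Oas1b, known for resistance to flaviviruses in some mice, rose by 1.82 ± 0.32 (adjusted p = 0.00582), and whether its protein works in this strain was not tested. Oas1a, a catalytic synthetase, rose by 1.36 ± 0.35 (adjusted p = 0.0300), and lost the call without replicate 2 (0.0576) or 3 (0.0766) of the EGFP arrays or replicate 1 (0.0965) or 3 (0.130) of those labelled EVI1. Oas3, the largest OAS protein and the neighbour of Oas2, read 7.70, 7.34 and 7.72 in the controls and 9.02, 7.75 and 9.10 in the arrays labelled EVI1. The groups did not overlap, but EVI1 replicate 2 was within a small step of the controls. Its difference of 1.04 ± 0.33 did not pass (adjusted p = 0.0672) and passed with the replicate block (0.0126) or, at 1.47, without EVI1 replicate 2 (0.00181). Oas1c read 8.24, 7.69 and 7.44 in the controls and 8.21, 7.98 and 7.63 in the other group. The 2 groups covered the same range. Its difference was 0.15 with a 95% interval of -0.36 to 0.66 (adjusted p = 0.761), and it turned to -0.02 without EGFP replicate 3. The OAS genes are close relatives, and how far their probes also bind each other's transcripts was not tested.

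Of 8 measured membrane and entry factors 3 rose, and the median difference was 0.99. Rtp4, a zinc finger protein that binds viral RNA at membranes, read 9.60, 7.40 and 9.39 in the controls and 12.07, 10.98 and 12.03 in the arrays labelled EVI1. EGFP replicate 2 lay at -1.99 from the lower of the other 2 controls, the widest such gap of any member, and EVI1 replicate 2 was also low. Rtp4 differed by 2.90 ± 0.56 (adjusted p = 0.00863) and lost the call without EVI1 replicate 3 (2.73, adjusted p = 0.0508). Bst2 (tetherin), which holds budding virions at the cell surface, rose by 0.95 ± 0.19 (adjusted p = 0.0111) from 8.95, 9.21 and 9.48 to 10.10, 9.87 and 10.51. No array overlapped, and replicate 2 was not low among the controls.

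Mx1 and Mx2 belong to a family of dynamin-like GTPases that trap viral ribonucleoproteins. Whether their transcripts make working proteins in this mouse strain was not tested. Mx1 read 6.48, 6.29 and 6.50 in the controls and 8.65, 6.95 and 8.27 in the other group. The controls were tight and dim, and EVI1 replicate 2 was near them. The difference was 1.54 ± 0.37 (adjusted p = 0.0235), lost without replicate 1 (0.0551) or 3 (0.0677) of the EGFP arrays or replicate 1 (0.0616) or 3 (0.109) of those labelled EVI1. Mx2 read 6.14, 5.93 and 6.13 in the controls and 8.16, 5.76 and 8.02 in the arrays labelled EVI1. It was high in EVI1 replicates 1 and 3 and below every control in EVI1 replicate 2. Its difference of 1.25 ± 0.55 did not pass (adjusted p = 0.184). It was 2.02 without EVI1 replicate 2 (adjusted p = 0.000374) and 0.82 without EVI1 replicate 1 (0.455). Both control means lay under the olfactory receptor level.

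The 4 measured IFITM genes, which hinder fusion of viral and cellular membranes, lie next to each other on chromosome 7, and none passed the test. Ifitm1 read 12.98, 12.87 and 12.95 in the controls and 12.97, 12.95 and 13.00 in the arrays labelled EVI1. All 6 arrays lay on the same level, and its second probe set gave a difference of 0.03. Ifitm3 read 13.24, 13.18 and 13.26 against 13.58, 13.37 and 13.53. Its groups did not overlap, with a small step of 0.27 ± 0.10 (adjusted p = 0.130). Ifitm2 differed by 0.37 ± 0.19 (adjusted p = 0.266), and its other 2 probe sets by 0.44 and 0.45. Without EGFP replicate 1, Ifitm2 differed by 0.15. Ifitm6, the family member of myeloid cells, read 9.44, 7.29 and 8.30 in the controls and 10.25, 8.53 and 9.32 in the other group. Replicates 1 were high, replicates 2 low and replicates 3 between in both groups, and in each pair the array labelled EVI1 was the higher. The difference of 1.03 ± 0.56 did not pass (adjusted p = 0.297) and passed with the replicate block (0.00192), while leaving out single arrays moved it between 0.50 (EGFP replicate 2) and 1.57 (EGFP replicate 1), with 0.59 without EVI1 replicate 1. All 4 are related in sequence, and binding across genes was not tested.

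Genes of the ISG15 and ubiquitin pathway counted 6 measured members, of which 5 rose. Uba7, the enzyme that activates ISG15, read 7.90, 8.02 and 7.83 in the controls and 9.76, 9.70 and 9.94 in the arrays labelled EVI1. Neither replicate 2 array stood apart. Its difference was 1.88 ± 0.11 (adjusted p = 5.84e-05). Herc6, the main ISG15 ligase of mice, rose by 2.02 ± 0.23 (adjusted p = 0.000782) from 9.75, 9.19 and 9.51 to 11.65, 11.01 and 11.85. Trim21, a cytosolic antibody receptor and ubiquitin ligase, rose by 1.53 ± 0.21 (adjusted p = 0.00167). Trim25, the ligase that modifies the RNA sensor RIG-I, rose by the least of the members that passed, 0.47 ± 0.11 (adjusted p = 0.0213), and lost the call without EGFP replicate 3 (0.0506), EVI1 replicate 1 (0.0698) or EVI1 replicate 3 (0.0801).

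Rnf213, a very large ubiquitin ligase, rose by 1.42 ± 0.35 (adjusted p = 0.0231), with 1.21 on its second probe set, and lost the call without EVI1 replicate 1 (0.0753) or EVI1 replicate 3 (0.101). Usp18, which removes ISG15 and dampens signalling at the type I interferon receptor, read 8.89, 7.93 and 8.78 in the controls and 10.33, 8.18 and 10.32 in the arrays labelled EVI1. EVI1 replicate 2 was above EGFP replicate 2 but under the other 2 controls. The difference of 1.08 ± 0.55 did not pass (adjusted p = 0.258). It passed with the replicate block (0.0260) and, at 1.79, without EVI1 replicate 2 (0.00722), and was 0.72 without EVI1 replicate 1 (0.557).

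All 4 members of the ADP-ribosylation group rose, with a median of 1.74. Parp14 and Parp12 are mono-ADP-ribosyltransferases, and Parp9 forms a complex with the ubiquitin ligase Dtx3l. Parp14, Dtx3l and Parp9 lie side by side on chromosome 16. Parp14 read 9.52, 8.41 and 9.33 in the controls and 11.10, 10.43 and 11.24 in the arrays labelled EVI1. Dtx3l read 9.82, 9.68 and 9.65 against 11.48, 11.15 and 11.47. Replicate 2 was low in both groups for Parp14 and hardly so for Dtx3l. Parp14 differed by 1.84 ± 0.31 (adjusted p = 0.00485), Dtx3l by 1.65 ± 0.12 (0.000161), Parp9 by 1.36 ± 0.15 (0.000742) and Parp12 by 1.82 ± 0.22 (0.000935). The 95% intervals of the 4 overlapped.

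Of the other 8 measured members 5 rose. Xaf1, a partner of the apoptosis inhibitor XIAP, read 8.95, 8.03 and 8.71 in the controls and 11.39, 10.34 and 11.44 in the arrays labelled EVI1. Replicate 2 was low in both groups, without overlap between them. Its difference was 2.49 ± 0.33 (adjusted p = 0.00155). Ifi27l2a, a small mitochondrial and membrane protein, rose by 1.41 ± 0.34 (adjusted p = 0.0217) and lost the call without EGFP replicate 3 (0.0759), EVI1 replicate 1 (0.0668) or, at a difference of 1.21, EVI1 replicate 3. Its neighbour on chromosome 12, Ifi27, read 9.58, 9.23 and 9.68 in the controls and 9.44, 9.04 and 9.23 in the other group. The groups overlapped and the sign was the opposite, with a difference of -0.26 ± 0.16 (adjusted p = 0.345) that was -0.40 without EGFP replicate 2, -0.17 without EGFP replicate 3 and -0.16 without EVI1 replicate 2.

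Samd9l, which restrains translation and growth, rose by 1.32 ± 0.31 (adjusted p = 0.0195). Sp100, a component of nuclear bodies, rose by 0.87 ± 0.20 (adjusted p = 0.0197). Both lost the call without EGFP replicate 3, EVI1 replicate 1 or EVI1 replicate 3 (adjusted p from 0.0563 to 0.0849). Tor3a, an ATPase of the endoplasmic reticulum, rose by 0.62 ± 0.14 (adjusted p = 0.0193) and lost the call without EGFP replicate 1 (0.0569) or EGFP replicate 3 (0.0518). Lgals3bp, a secreted galectin ligand, read 8.91, 10.50 and 9.44 in the controls and 10.17, 10.41 and 11.31 in the arrays labelled EVI1. EGFP replicate 2 was above 2 of the 3 arrays of the other group, against the low position it had for most members. The difference of 1.01 ± 0.42 did not pass (adjusted p = 0.151). It was 1.45 and passed without EGFP replicate 2 (0.0135), and was 0.66 without EGFP replicate 1 and 0.67 without EVI1 replicate 3. Ifi35, a leucine zipper protein, differed by 0.35 ± 0.17 (adjusted p = 0.225), by 0.50 without EGFP replicate 2 (0.0465) and by 0.22 without EGFP replicate 1.

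**Figure D3:**
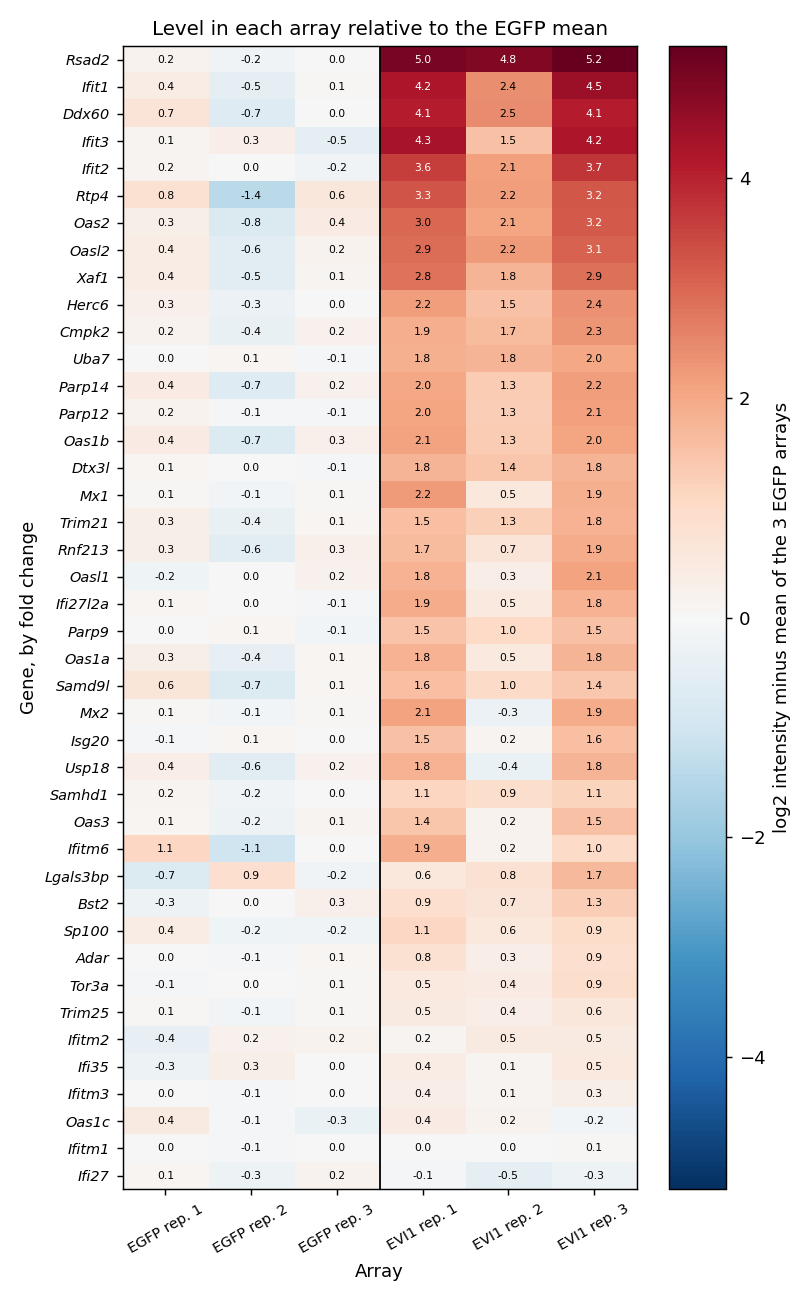
Level of each of the 42 members in each of the 6 arrays as the log2 value minus the mean of the 3 EGFP arrays (colour and printed number, to 1 decimal), with genes in order of difference. EVI1 replicates 1 and 3 are alike in nearly every row, and EVI1 replicate 2 is paler in most rows, below 0 in Mx2, Usp18 and Ifi27, and as dark as its group in Rsad2 and Uba7.

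The spread between replicates was wider in these genes than in the rest of the array. The median SD of the 42 members was 0.28 in the EGFP arrays and 0.44 in those labelled EVI1, and over all genes it was 0.16 and 0.13. The mean of the 42 members was 8.98, 8.56 and 8.86 in EGFP replicates 1 to 3 and 10.62, 9.80 and 10.68 in EVI1 replicates 1 to 3. Replicate 2 was thus the lowest in each group, and its array in the EVI1 group still lay above all controls. EVI1 replicate 2 was the lowest array of its group in 39 of 42 members and in 30 of the 30 that rose. Among all genes it was the lowest in 36.9%, and among all genes that rose in 29.3%. The exceptions were Lgals3bp, Oas1c and Ifitm2. EGFP replicate 2 was the lowest control in 27 of 42 members, against 40.9% of all genes.

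The members differed from each other in how far replicate 2 lay below the lower of the other 2 arrays of its group. In EVI1 replicate 2 this gap exceeded 1 in 14 of 42 members (33.3%) and in 40 of 19937 genes (0.201%), and the members' values ran from -2.69 for Ifit3 to 0.35 for Oas1c. Both replicate 2 arrays were lower by more than 0.5 in 12 members: Ifit1, Ddx60, Rtp4, Oas2, Oasl2, Xaf1, Parp14, Oas1b, Rnf213, Oas1a, Usp18 and Ifitm6. Only the array labelled EVI1 was in 10, namely Ifit3, Ifit2, Herc6, Parp12, Mx1, Oasl1, Ifi27l2a, Mx2, Isg20 and Oas3, and only the control was in Cmpk2, Trim21 and Samd9l. In the other 17 members, Rsad2, Uba7, Dtx3l, Parp9, Samhd1 and Bst2 among them, neither array was. Over all genes the shares were 0.246% for both arrays, 0.687% for the array labelled EVI1 alone, 3.76% for the control alone (7.14% of the members) and 95.3% for neither. The median of EVI1 replicate 2 over all probe sets was 7.24, as in EGFP replicate 2. Replicate 3 has the same Xist and Y-linked pattern as replicate 2, and its member means were 8.86 (EGFP) and 10.68 (EVI1). Whether the sex of the cells has a part in the replicate 2 values was not tested.

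**Figure D4:**
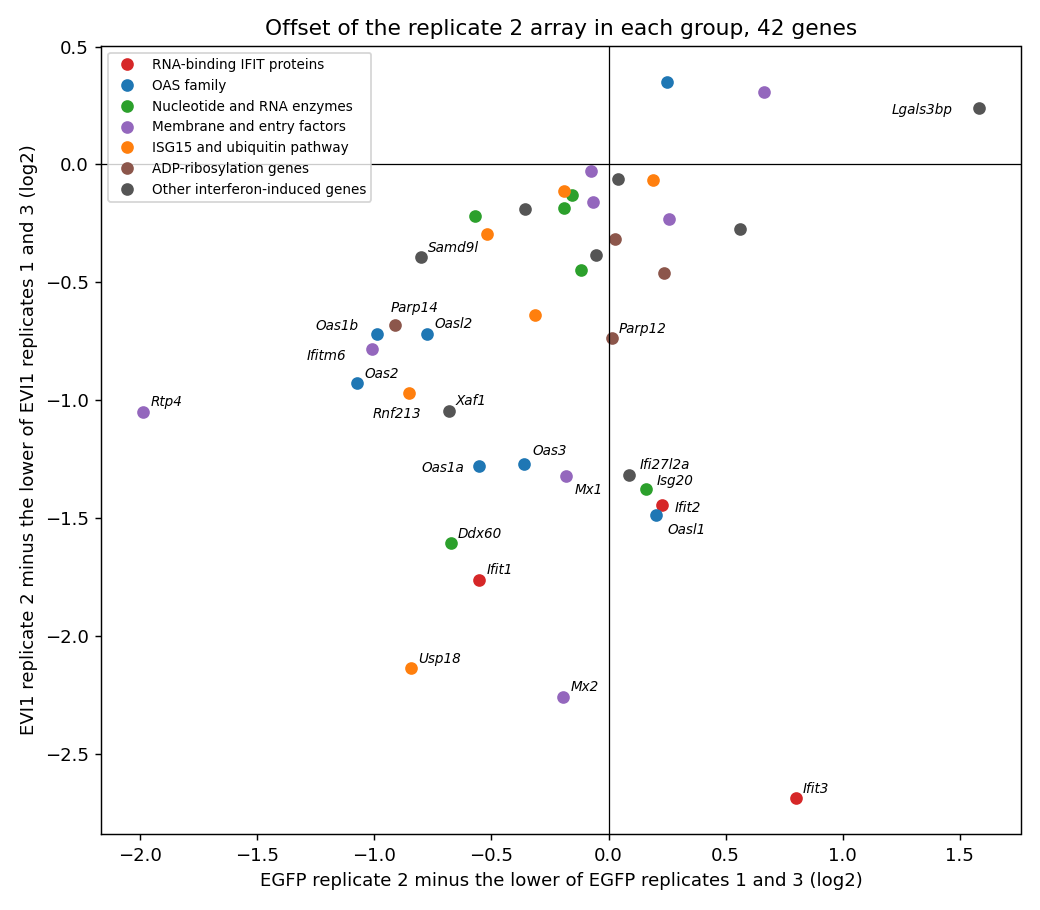
Gap of the replicate 2 array below (negative) or above (positive) the lower of replicates 1 and 3 of its group on the log2 scale, in the EGFP arrays (x axis) and in those labelled EVI1 (y axis), 1 point per member coloured by role. Most points lie below 0 on the y axis, Ifit3, Mx2 and Usp18 the furthest, and Rtp4 lies furthest to the left at -1.99.

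The median difference of the 30 risen members was 1.76, 1.56 and 1.89 in pairs 1, 2 and 3, and for all genes that rose it was 0.72, 0.81 and 0.83. Pair 2 gave the smallest of the 3 differences in 18 of the 30 risen members (60%) and in 619 of all 1807 genes that rose (34.3%). With the replicate number as a block, Usp18, Oas3, Isg20 and Ifitm6 passed in addition, and none of the 30 was lost.

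Of the 12 members that did not pass, 6 had a difference above 1: Mx2, Isg20, Usp18, Oas3, Ifitm6 and Lgals3bp. Mx2, Isg20, Usp18 and Oas3 passed without EVI1 replicate 2, as the values above show, and in Usp18 EGFP replicate 2 was low as well. The remaining 6, Ifitm2, Ifi35, Ifitm3, Oas1c, Ifitm1 and Ifi27, lay between -0.26 and 0.37. In Ifitm1, Ifitm2, Ifitm3 and Ifi27 no setting tried gave a call. Their 95% intervals were -0.18 to 0.26 for Ifitm1, -0.07 to 0.81 for Ifitm2, 0.03 to 0.51 for Ifitm3 and -0.62 to 0.10 for Ifi27. A rise of these genes, or of Oas1c with its upper bound of 0.66, by less than 2-fold is therefore not excluded by the intervals. All 6 lay above the olfactory receptor level in both groups.

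Genes that neighbour each other on a chromosome, with no protein-coding gene between them, did not all move alike. Parp14, Dtx3l and Parp9 rose by like amounts. Ifit2 and Ifit3 differed by 3.16 and 3.34, but the control level of Ifit3 lay near background, so these sizes cannot be ranked. The differences were 4.98 and 1.94 for Rsad2 and Cmpk2, whose sizes cannot be ranked because the control level of Cmpk2 lay near background. They were 2.73 and 1.42 for Oasl2 and Oasl1, with overlapping intervals (2.05 to 3.41 and 0.48 to 2.35), 2.74 and 1.04 for Oas2 and Oas3, and 1.41 and -0.26 for Ifi27l2a and Ifi27. The interval of Ifi27 ended at 0.10 and that of Ifi27l2a began at 0.63, and the interval of Oas3 ended at 1.79 and that of Oas2 began at 1.89.

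The rise extended to receptors, transcription factors and sensors of the interferon pathway, while none of its measured ligands passed. Of 51 further pathway genes 47 were measured, 20 rose and 0 fell, with a median difference of 0.36. Over all genes 9.06% rose and 9.18% fell. The 0 of 9 ligands and 1 of 5 feedback genes that rose are counts too small to set apart from those shares. The 9 measured interferon genes gave no call, and Ifnb1, Ifng, Ifna4 and Ifne lay under the olfactory receptor level in both groups. The ligands with the smallest p were Ifnk at 0.69 (adjusted p = 0.296, and 0.0461 with the replicate block), Ifnab at -0.17 (adjusted p = 0.567) and Ifna2 at -0.10 (0.670). Of 6 receptor chains 4 rose: Ifnar1, a chain of the type I receptor, by 0.73 (adjusted p = 0.00393), Ifnlr1 and Il10rb, the chains of the type III receptor, by 0.61 (0.0111) and 0.92 (0.0119), and Ifnar2, which was named after its value was seen, by 0.62 (0.0231).

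Of 12 measured kinases and transcription factors 7 rose. Irf1, a transcription factor induced by interferon gamma and other cytokines, rose the most, by 2.31 (adjusted p = 0.000243), with Stat3 at 1.07 (0.000567) and Irf2 at 0.91 (0.00133). Stat2, Irf9 and Irf7, named after their values were seen as the factors that drive this class of genes, rose by 1.56, 1.14 and 1.41. Of 15 sensors and adaptors 8 rose, and those with the smallest p were Ddx58 (the RNA sensor RIG-I) at 1.95 (adjusted p = 0.000291), Zbp1, a sensor of Z-form nucleic acid, at 2.56 (0.00193) and Dhx58, a regulator of RIG-I, at 1.39 (0.00233). Of 5 feedback genes only Ptpn6, a phosphatase of cytokine receptors, rose, by 0.81 (adjusted p = 0.00404). Pias1 and Ptpn2, which restrain STATs and Janus kinases, differed by 0.23 (adjusted p = 0.220) and 0.28 (0.312). EVI1 replicate 2 was the lowest array of its group in 29 of these 47 genes (36.9% of all genes). Its gap exceeded 1 in Zbp1 alone (0.201% of all genes).

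**Figure D5:**
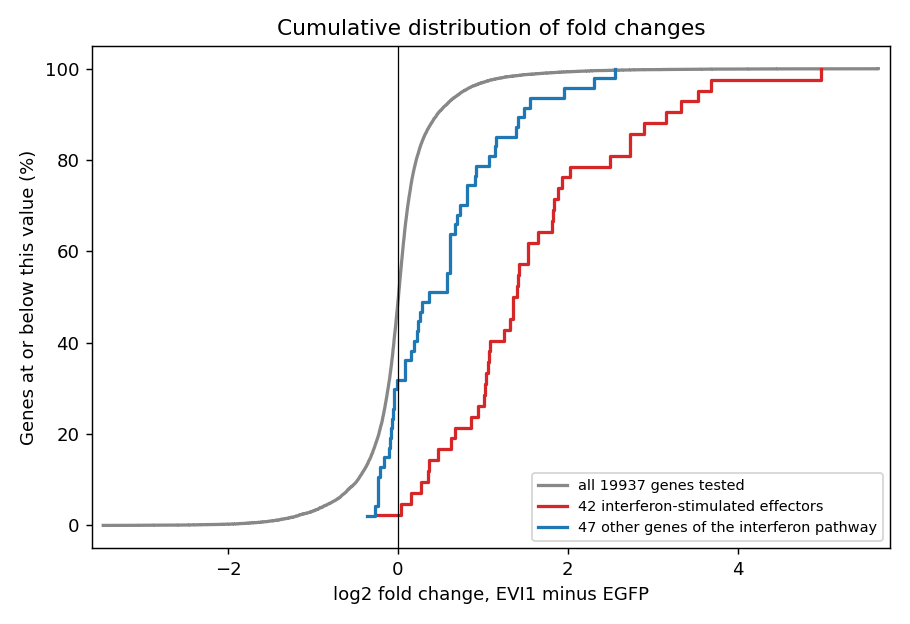
Cumulative share of genes (y axis, percent) at or below each difference in log2 level, EVI1 minus EGFP (x axis), for the 42 effectors, the 47 other interferon pathway genes and all 19937 genes tested. The curve of the effectors lies furthest to the right, with a median of 1.38, that of the pathway genes has a median of 0.36, and that of all genes passes 50% close to 0.

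Cell type markers gave the setting of these changes. Of 82 listed markers 72 were measured, and 5 rose and 20 fell, against 9.06% and 9.18% of all genes. With the replicate block 6 rose and 28 fell, against 10.9% and 11% of all genes. A single call in 1 of these short lists cannot be set apart from those shares. The stem and progenitor markers that fell were Kit, Cd34, Flt3, Cd48, Myb, Meis1 and Cd93, from -0.61 for Kit to -2.45 for Cd34. Kit, Cd34 and Flt3 lay above the olfactory receptor level in both groups. So did the neutrophil genes S100a8 (mean 12.3 in the controls) and Ngp (11.8), although the label is lineage-negative. Ngp fell (difference -2.87), and S100a8 did not pass (limma adjusted p = 0.799). Of the neutrophil list only Ly6g (6.10) and Retnlg (5.82) lay under that level in the controls. S100a8 and Retnlg were named after their values were seen. In the mast cell and basophil list 4 of 6 fell. Among the other classes that a Lin- culture could hold, 2 of 8 conventional dendritic, 2 of 9 monocyte and macrophage, and 2 of 8 neutrophil markers fell, and 1 in each of the latter 2 lists rose (Mrc1 and Ly6g). The array means of the monocyte and macrophage list were 7.77 to 8.34 in the controls and 7.69 to 8.13 in the other group, and those of the neutrophil list 9.05 to 10.1 and 8.14 to 9.07. In the B cell list Cd79b rose and 3 of 5 measured markers lay under the olfactory receptor level in both groups. The T cell and natural killer lists held 1 change each, Cd3g and Klrd1, both downward. In the megakaryocyte list Ppbp rose and Pf4 fell, and the 3 erythroid and 4 eosinophil markers measured gave no call. The block added falls of Epx (adjusted p = 0.00523), Prg2 (0.0214) and Prg3 (0.0255) in the eosinophil list, of S100a9 (0.0298) and Ltf (0.0295) in the neutrophil list, and of Adgre1 (0.00233), H2-Aa (0.0314) and Klrb1c (0.0332), and a rise of Cd74 (0.00299).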

How the data were processed

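Total RNA was amplified, labelled with biotin and hybridised to Affymetrix Mouse Gene ST arrays, 3 per group. The deposited values are log2 intensities made by the authors with RMA, as the submitters' processing notes name it, and its version is not given in the sources used here. They were used without rescaling or filter. Read depth does not apply to arrays, so precision is limited by how many there are. Of 34760 probe sets, 21640 name exactly 1 gene in the platform annotation, and each of 19937 genes took its brightest probe set.

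The comparison used lmFit and eBayes of limma 3.58.1 under R 4.3.3, two-sided, with Benjamini-Hochberg adjustment over all genes. In simulated data 74 of 100 genes changed by 1 log2 unit and 97 of 100 changed by 2 were recovered, and 9 unchanged genes were called in the same run. The changed genes were picked at random, with independent normal noise of 1 SD per gene. The members spread more widely between replicates, so these shares do not hold for them. Arrays with the same replicate number were taken as pairs, which the labels do not state. Deviations from the group means of same-numbered arrays correlated over genes at 0.491, 0.269 and 0.197. Arrays of different number were not compared in this way. The main fit leaves the pairing out, and a replicate block was fitted as an alternative. Other alternatives changed filter, normalization, probe set choice, variance model, array weights and arrays used. Named genes were every measured member, Mecom, up to 3 pathway genes per role by p, and markers that passed. The members, the pathway and marker lists and these rules were chosen with earlier results of these data known. Promoter sequences are RefSeq's (GRCm38.p6); proteins were not analysed here.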

Additional observations from a re-analysis of the deposited data

How the results depend on the processing

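Leaving out 1 array gave 19 (without EVI1 replicate 3, 5.91% of all genes) to 34 members that rose (without EVI1 replicate 2, 6.37%), with 0 that fell. Without EGFP replicates 1, 2 and 3 the counts were 27, 30 and 22, beside 7.73%, 10.2% and 6.28% of all genes. Without EVI1 replicate 1 the count was 21, beside 6.73%. The median difference of the members then ran from 1.19 to 1.79, the highest without EVI1 replicate 2. The counts of all genes that rose or fell ran from 2289 to 4098, of those that rose from 1179 to 2037 and of those that fell from 1110 to 2061, lowest without EVI1 replicate 3. Pathway genes that rose ran from 15 to 20, in settings where 5.91% to 10.2% of all genes rose. Members without overlap ran from 33 to 36. With fewer arrays overlap is less likely, and these settings were not counted over all genes. The Mecom difference ran from -0.87 (without EGFP replicate 1) to -0.30. Oas1c, leaving out 1 array, ran from -0.021 (without EGFP replicate 3) to 0.38. The causes were not tested.

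The other alternatives (replicate block, filters, normalizations, probe set mean, variance model, array weights) left 29 to 34 members that rose. In these settings 8.79% to 16.3% of all genes rose. The 34 members were found under the replicate block. Beside the 4 gained members and Ifngr2, Ifnk, Ticam1 and Eif2ak2 of the pathway list, the block changed no call among those genes. Oasl1 lost its call with trend and robust variance. The median filter left out Mx1, Mx2 and Mecom and gave calls for Isg20 and Oas3. Without replicate 2 in both groups, added after the data were seen, 36 members rose (8.21% of all genes). Of 30 risen members 18 kept their call in every alternative that kept the gene, and over 628 member values 575 kept direction and call, 34 lost a call, 18 gained one and 1 turned sign. No detection calls were used here, so for Ifit3, Cmpk2, Mx1 and Mx2 the control level may be background.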

Other observations

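The 40 genes whose value in EVI1 replicate 2 lay more than 1 log2 unit below the lower of EVI1 replicates 1 and 3 were listed after their values were seen. Of these 40, 14 were effectors described above (35%) and 26 were other genes, of which 11 rose and 1 fell. The others included Cxcl10, a chemokine induced by interferon, at 8.92, 8.19 and 8.69 in EGFP replicates 1 to 3 and 11.18, 9.06 and 11.25 in EVI1 replicates 1 to 3. Gbp9 and Iigp1, interferon-induced GTPases, read 10.35, 8.72 and 10.39, and 8.81, 7.62 and 9.68, in the arrays labelled EVI1. Schlafen genes (Slfn1, Slfn4, Slfn5 and Slfn8), Ifi200-family genes (Ifi203, Ifi205, Ifi206, Ifi207 and Ifi213) and Ms4a genes (Ms4a4c, Ms4a6b, Ms4a6c and Ms4a6d) were also on the list. Slfn4 read 8.20, 6.61 and 7.21 in the controls and 10.91, 7.65 and 10.09 in the arrays labelled EVI1, and its difference of 2.21 did not pass the limma test (adjusted p = 0.0886). Ccl3, a chemokine of myeloid cells, was the 1 that fell, from 12.85, 12.51 and 12.32 to 11.26, 9.85 and 11.11.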
